A study of Homo sapiens with 3 samples.

Results

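The human mitochondrial genome carries 37 genes, and all 37 had a row in the read count table of 58381 genes: 13 messenger RNAs (mRNAs), 22 transfer RNAs (tRNAs) and 2 ribosomal RNAs (rRNAs). The set was chosen by gene name, as every row whose identifier maps to a symbol beginning with MT-, and every one lies on chromosome M of GRCh38. It was taken up after the share of mitochondrial counts, the median ratio of the mRNAs and the ratio of MT-TQ were known from these same libraries, so those values are a description and nothing below is a test of them. The cells were T24, an established human bladder urothelial carcinoma line, and RNA-seq was run on 1 library in each of 3 conditions. Ctrl received no radiation (its label reads Empty), RT was exposed to ionizing radiation at 10 Gy from a 137Cs source, and RT + shHDAC6 was exposed to the same dose while carrying a lentiviral short hairpin RNA against HDAC6, a cytoplasmic deacetylase. The last library is also written below as the one with the hairpin. The labels describe lentiviral infection with the hairpin or with the pLKO.1 control vector followed by puromycin selection, whereas the account of the results in the study calls the comparator parental cells, so whether Ctrl and RT carried the vector is not settled. The knockdown library rests on 1 hairpin in 1 cell line, and no unirradiated knockdown library was analysed here. The time between irradiation and RNA extraction is not given in the sources used here.

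The libraries held 41811165 counts (Ctrl), 35959265 counts (RT) and 35424086 counts (RT + shHDAC6). With 1 library per condition there is no measure of biological spread, no test was possible and no p-value is given. The 95% Clopper-Pearson intervals therefore cover counting error only. They may be too narrow even for that, because no molecular identifiers are described and reads need not be separate molecules. HDAC6 itself had 3098 counts in Ctrl, 2383 counts in RT and 2170 counts with the hairpin, a log2 ratio of −0.20 (−0.28 to −0.11) between the knockdown and RT libraries, so the targeted mRNA differed little in the library labelled as its knockdown. Outside these libraries, the study reports lower HDAC6 mRNA by qPCR and lower HDAC6 protein by Western blotting in its knockdown T24 cells. Of 12 epithelial and urothelial markers checked, 9 passed the filter on low counts described below, led by KRT18 (7336, 8362 and 9048 counts) and KRT7 (3533, 3854 and 597 counts). These 2 were higher in RT than in Ctrl and the others (KRT5, KRT8, KRT19, EPCAM, CDH1, GATA3 and PPARG) were lower, with a median log2 ratio of −0.46 over the 9, and KRT7 and GATA3 were at least 2-fold lower with the hairpin than in RT. UPK2 and UPK3A, defining genes of mature urothelium, had at most 3 counts in any library, and UPK1A had 18, 2 and 2 counts. The mesenchymal gene VIM was the highest marker (121716, 74147 and 95822 counts). Of the 4 mesenchymal markers, VIM, FN1 and ZEB1 were lower in RT than in Ctrl, and CDH2 was higher, at a log2 ratio of 0.78 (0.73 to 0.82). With the hairpin CDH2 was at least 2-fold lower than in RT, at −1.04 (−1.09 to −0.99), while VIM was at 0.31, FN1 at 0.07 and ZEB1 at 0.03. The 4 leukocyte markers had at most 120 counts in a library, and the 3 endothelial markers 68 to 489 counts, each lower in RT than in Ctrl. The part of these differences in the mitochondrial results was not tested.

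Mitochondrial DNA is transcribed as long RNAs that run nearly around the circle from promoters of both strands. The tRNAs stand like punctuation between most of the mRNAs and rRNAs, and their excision by RNase P and ELAC2 frees the neighbouring RNAs. Most mitochondrial mRNAs receive a poly(A) tail, but the MT-ND6 mRNA lacks one and mature tRNAs end in CCA instead, so a poly(A)-based library captures these RNAs inefficiently. In the reference sequence, 28 of the genes (12 mRNAs, both rRNAs and 14 tRNAs) are on the plus strand and 9 (MT-ND6 and 8 tRNAs) on the minus strand.

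Because the largest ratios in RT against Ctrl belonged to tRNAs of the minus strand, the 6 of them that had over 3 counts in some library are shown here, with the genome position of each in GRCh38, the minus strand read 5′ to 3′ and the anticodon in capitals. The anticodon was located by the position of its 5-base-pair stem.
MT-TQ (glutamine; chrM:4329-4400): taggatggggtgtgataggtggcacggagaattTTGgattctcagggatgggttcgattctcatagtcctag
MT-TA (alanine; chrM:5587-5655): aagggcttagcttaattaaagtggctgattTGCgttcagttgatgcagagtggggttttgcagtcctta
MT-TY (tyrosine; chrM:5826-5891): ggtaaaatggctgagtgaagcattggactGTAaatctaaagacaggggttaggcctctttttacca
MT-TS1 (serine; chrM:7446-7514): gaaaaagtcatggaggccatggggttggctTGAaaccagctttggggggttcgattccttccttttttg
MT-TE (glutamate; chrM:14674-14742): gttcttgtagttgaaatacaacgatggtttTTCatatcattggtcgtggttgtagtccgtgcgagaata
MT-TP (proline; chrM:15956-16023): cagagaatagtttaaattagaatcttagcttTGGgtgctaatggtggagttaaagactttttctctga
The CCA end is added after transcription and is not encoded, so none of these gene sequences holds it.

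Mitochondrial RNA took up a larger part of both irradiated libraries. The 37 genes held 3.75% of all counts in Ctrl, 6.09% in RT and 5.51% with the hairpin (1566090, 2188282 and 1952940 counts). In bulk cells, a change in the number of mitochondrial genomes or cells and a change in RNA per genome or cell cannot be told apart. Ratios were taken between counts scaled by the trimmed mean of M-values (TMM), and 25 of the 37 genes passed a filter of a mean of at least 10 counts over the 3 libraries. All 26 genes that had over 3 counts in RT or Ctrl were higher in RT than in Ctrl. MT-TF (2 counts in Ctrl and 5 in RT) and MT-TE (3 and 21) met this rule only through RT, so the rule fixed their direction. The counting intervals of the log2 ratio included 0 for MT-TF (−0.85 to 5.15), MT-TM (−0.24 to 2.46) and MT-TW (−0.53 to 1.83). Of the 25 past the filter, 15 were at least 2-fold higher in RT and 0 were at least 2-fold lower, where 4.62% and 6.36% of the 18761 genes past the same filter were higher and lower. Between RT + shHDAC6 and RT, 1 of the 25 (MT-TW) was at least 2-fold higher and 0 lower, against 3.35% and 4.26% of all genes. Between RT + shHDAC6 and Ctrl, 12 were at least 2-fold higher and 0 lower, against 4.44% and 7.82%. MT-TE and MT-TM reached the mean of 10 counts only through the irradiated libraries, and both are among the 15 and the 12. The 3 comparisons share libraries, so they are not separate evidence of one pattern. The median log2 ratios over the 18761 genes were −0.03, −0.01 and −0.03 in the 3 comparisons. Scaling by library totals instead moved every log2 ratio by −0.22 in RT against Ctrl and brought the number at least 2-fold higher from 15 to 10.

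**Figure D1:**
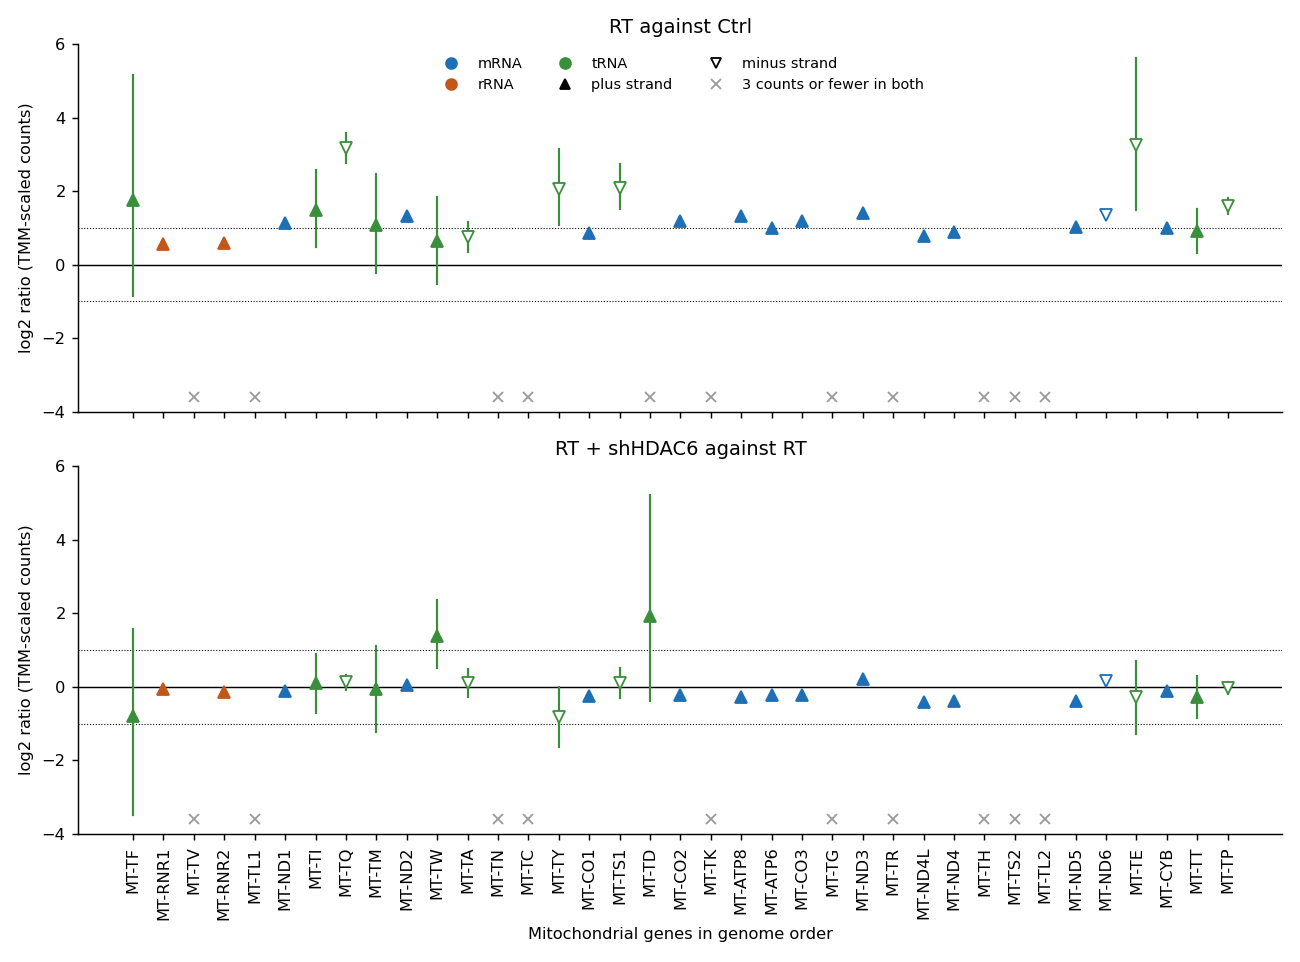
Log2 ratio of TMM-scaled counts (y axis) for the 37 mitochondrial genes in genome order (x axis), RT against Ctrl above and RT + shHDAC6 against RT below; colours mark the RNA class, filled and open triangles the strand, vertical lines the 95% counting intervals, dotted lines a 2-fold difference, and crosses genes with 3 counts or fewer in both libraries. In the upper panel every point lies above 0, the rRNAs lie lowest at 0.57 and 0.58, and MT-TQ (3.16) and MT-TE (3.24) lie highest.

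Of the genes with a ratio, the ribosomal RNAs differed least between RT and Ctrl. MT-RNR1, the 12S rRNA of the small mitochondrial ribosomal subunit (chrM:648-1601, plus strand), had 68563 counts in Ctrl, 75329 in RT and 75949 with the hairpin. MT-RNR2, the 16S rRNA of the large subunit (chrM:1671-3229, plus strand), had 203611, 225767 and 214364 counts. Their log2 ratios in RT against Ctrl were 0.57 (0.56 to 0.59) for MT-RNR1 and 0.58 (0.58 to 0.59) for MT-RNR2, below that of each of the 13 mRNAs. In RT + shHDAC6 against RT the log2 ratios were −0.05 (−0.06 to −0.04) for MT-RNR1 and −0.14 (−0.15 to −0.13) for MT-RNR2, and the sign for MT-RNR1 turned with scaling by library totals (0.03). The level of MT-RNR2 per kb of gene stood at 1.82, 1.83 and 1.73 times that of MT-RNR1 in Ctrl, RT and RT + shHDAC6. Of all mitochondrial counts, the rRNAs held 17.4% in Ctrl, 13.8% in RT and 14.9% with the hairpin. These shares describe what entered the library, since mitochondrial rRNAs carry only short A tails and the labels name an mRNA kit.

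The mRNAs were about doubled in RT and lay between Ctrl and RT in most cases with the hairpin. Their summed counts were 1293390 in Ctrl, 1885850 in RT and 1661193 with the hairpin, a 1.97-fold difference between RT and Ctrl after scaling. All 13 were higher in RT than in Ctrl, with a median log2 ratio of 1.12 and a range of 0.77 to 1.39, and 8 of them passed 2-fold. MT-CYB and MT-ATP6 sat just under that line, MT-ATP6 at a log2 ratio of 0.9994 and MT-CYB closer still. In RT + shHDAC6 against RT, 10 of the 13 were lower and 3 (MT-ND2, MT-ND3 and MT-ND6) higher, with a median of −0.22 and a range of −0.42 to 0.21. None of these 13 differences reached 2-fold. All 13 stayed above Ctrl in RT + shHDAC6, with a median of 0.95.

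Of the mRNAs for subunits of complex I, the NADH dehydrogenase, 5 of 7 were at least 2-fold higher in RT than in Ctrl. MT-ND3 had 4112 counts in Ctrl, 7989 in RT and 9629 with the hairpin, with log2 ratios of 1.39 (1.34 to 1.45) in RT against Ctrl and 0.21 (0.16 to 0.25) in RT + shHDAC6 against RT. MT-ND2 had 35648, 66107 and 71216 counts, with log2 ratios of 1.33 (1.31 to 1.34) and 0.05 (0.03 to 0.06). Both were thus highest in the library with the hairpin. MT-ND1 had 44491, 71448 and 68691 counts, and its log2 ratios were 1.12 (1.10 to 1.14) and −0.12 (−0.13 to −0.10). MT-ND5 had 128408, 192553 and 153528 counts, and its log2 ratios were 1.02 (1.01 to 1.03) and −0.39 (−0.40 to −0.38). MT-ND4L and MT-ND4, which are carried on 1 bicistronic mRNA and overlap by 7 bases, had 2 of the lowest mRNA ratios in RT, together with MT-CO1. MT-ND4L had 20899, 26426 and 20647 counts, with log2 ratios of 0.77 (0.75 to 0.80) and −0.42 (−0.44 to −0.39). MT-ND4 had 157633, 215590 and 171808 counts, with log2 ratios of 0.89 (0.88 to 0.90) and −0.39 (−0.40 to −0.38). MT-ND4L, MT-ND4 and MT-ND5 were the only mRNAs below −0.3 in RT + shHDAC6 against RT, and they lie next to each other in the genome apart from 3 tRNAs.

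The 3 mRNAs of complex IV, the cytochrome c oxidase, were higher in RT and lower again with the hairpin. MT-CO1 had the most counts of any mitochondrial gene, 566870 in Ctrl, 766120 in RT and 666437 with the hairpin, with log2 ratios of 0.87 (0.86 to 0.87) and −0.26 (−0.27 to −0.26). MT-CO2 had 76840, 128553 and 114932 counts, with log2 ratios of 1.18 (1.17 to 1.19) and −0.22 (−0.24 to −0.21). MT-CO3 had 91441, 153646 and 137461 counts, with log2 ratios of 1.18 (1.17 to 1.196) and −0.22 (−0.23 to −0.21). MT-CO2 and MT-CO3 lay closer to each other than either did to MT-CO1 in both comparisons.

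The mRNA for both ATP synthase subunits is a single transcript on which the reading frames overlap by 46 bases, so reads across that stretch cannot be assigned to one of them. MT-ATP8 had 6778 counts in Ctrl, 12448 in RT and 10804 with the hairpin, with log2 ratios of 1.31 (1.27 to 1.35) and −0.27 (−0.30 to −0.23). MT-ATP6 had 55931, 82700 and 73307 counts, with log2 ratios of 0.9994 (0.98 to 1.01) and −0.24 (−0.25 to −0.22). Although they share a transcript, the counting intervals of their ratios in RT against Ctrl did not overlap. MT-CYB, the cytochrome b of complex III, had 85363, 126267 and 120914 counts, with a log2 ratio that rounds to 1 (0.99 to 1.01) in RT against Ctrl and one of −0.12 (−0.14 to −0.11) between the irradiated libraries.

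**Figure D2:**
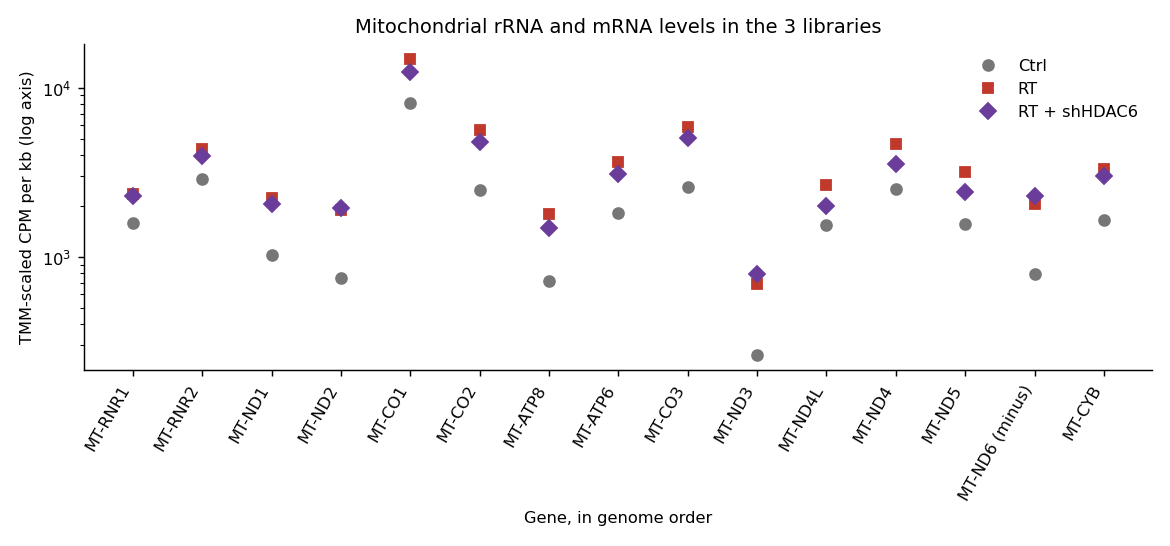
TMM-scaled CPM per kb of gene (y axis, log scale) of the 2 rRNAs and 13 mRNAs in genome order (x axis), with 1 point for each of the 3 libraries. The Ctrl point is the lowest for all 15 genes, and the RT + shHDAC6 point is above the RT point for MT-ND2, MT-ND3 and MT-ND6.

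The order of the mRNAs by level per kb changed little. MT-CO1 was first in all 3 libraries, at 8106, 14810 and 12340 TMM-scaled CPM per kb (CPM being counts brought to a common library size), and MT-CO3 was second. MT-ND3 was last, at 262, 688 and 795 CPM per kb. The distance between first and last was 30.9-fold in Ctrl, 21.5-fold in RT and 15.5-fold with the hairpin.

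Within the mRNAs, the share of each gene does not depend on the scaling between libraries. In RT, 10 of the 13 took a larger share of the mRNA counts than in Ctrl and 3 (MT-CO1, MT-ND4L and MT-ND4) a smaller one. MT-CO1 went from 43.8% to 40.6% in RT and to 40.1% in RT + shHDAC6. MT-ND4 went from 12.2% to 11.4% and 10.3%. MT-ND2 went from 2.76% to 3.51% and 4.29%, and MT-ND3 from 0.318% to 0.424% and 0.580%. For MT-ND2, MT-ND3 and MT-ND6 the share was therefore higher in RT than in Ctrl and higher again with the hairpin, and none of the intervals of the 3 libraries overlapped. The same held for MT-ND1, MT-CYB, MT-CO2 and MT-CO3, so only the size of the rise set the former apart. In RT + shHDAC6 against Ctrl the log2 ratio of the share was 0.64 for MT-ND2, 0.87 for MT-ND3 and 0.78 for MT-ND6. It was 0.27 for MT-ND1, 0.14 for MT-CYB, 0.22 for MT-CO2 and 0.23 for MT-CO3.

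MT-ND6, a complex I subunit, is the only mRNA of the minus strand (chrM:14149-14673). It had 18976 counts in Ctrl, 36003 in RT and 41819 with the hairpin, and was thus highest in the library with the hairpin. Its log2 ratio was 1.36 (1.33 to 1.38) in RT against Ctrl and 0.15 (0.13 to 0.17) in RT + shHDAC6 against RT. The summed counts of the 12 plus-strand mRNAs had log2 ratios of 0.97 (0.97 to 0.98) and −0.25 (−0.26 to −0.25) in the same comparisons. MT-ND6 took 1.47% of the mRNA counts in Ctrl, 1.91% in RT and 2.52% with the hairpin. Per kb, its level was 49.6% of the median plus-strand mRNA in Ctrl, 63.2% in RT and 83.6% with the hairpin, which moved its rank from 10 to 8 of the 13. MT-ND3 and MT-ND2 of the plus strand had shares that moved by a similar amount, so the shift of MT-ND6 had a counterpart on the plus strand. The strand setting of the counting is not stated, and the gene lies opposite transcripts of the plus strand, so reads from both strands could have entered its count.

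Over all 9 minus-strand genes, the share of mitochondrial counts was 1.24% in Ctrl, 1.70% in RT and 2.21% with the hairpin, and nearly all of it was MT-ND6. The plus-strand genes together had a log2 ratio of 0.91 (0.91 to 0.91) in RT against Ctrl and the minus-strand genes 1.37 (1.35 to 1.40). Between the irradiated libraries they had opposite signs, −0.23 (−0.24 to −0.23) and 0.15 (0.13 to 0.17).

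The tRNAs gave very few counts, 526 in Ctrl, 1336 in RT and 1434 with the hairpin, or 0.0336%, 0.0611% and 0.0734% of the mitochondrial counts. Mature tRNAs are too short and too folded for a usual mRNA library. Of the 22 tRNAs, 10 passed the filter, 6 from the minus strand and 4 from the plus strand. The minus-strand tRNAs, 8 of the 22 genes, held 85.0% (81.6 to 87.9) of the tRNA counts in Ctrl, 90.9% (89.3 to 92.4) in RT and 89.9% (88.2 to 91.4) with the hairpin. Like MT-ND6, they lie opposite plus-strand transcripts, so reads from both strands could have entered their counts. Most tRNAs with the crowded layout described below, which had next to no counts, are on the plus strand. The part of the strand setting and of this layout in the shares was not tested.

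MT-TQ, the glutamine tRNA shown above, had 59 counts in Ctrl, 390 in RT and 444 with the hairpin. Both irradiated libraries were far above Ctrl, with a log2 ratio of 3.16 (2.76 to 3.58) in RT against Ctrl and 3.29 (2.89 to 3.70) in RT + shHDAC6 against Ctrl. Between the irradiated libraries its log2 ratio was 0.12 (−0.07 to 0.32), an interval that includes 0. It made up 11.2% of the tRNA counts in Ctrl, 29.2% in RT and 30.96% with the hairpin. MT-TQ overlaps MT-TI of the opposite strand by 3 bases, and MT-TI, the isoleucine tRNA, had only 13, 27 and 30 counts.

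MT-TP, the proline tRNA, had the most counts of any tRNA, with 250 in Ctrl, 554 in RT and 567 with the hairpin and a log2 ratio of 1.58 (1.36 to 1.80) in RT against Ctrl. MT-TS1, a serine tRNA, had 31, 98 and 110 counts and a log2 ratio of 2.10 (1.5 to 2.73). MT-TA, the alanine tRNA, had 92, 114 and 128 counts and was the minus-strand tRNA with the smallest log2 ratio, 0.74 (0.34 to 1.16). For these 3 the interval of the log2 ratio between RT + shHDAC6 and RT included 0. MT-TY, the tyrosine tRNA, had 12 counts in Ctrl, 37 in RT and 22 with the hairpin, with log2 ratios of 2.06 (1.09 to 3.13) in RT against Ctrl and −0.81 (−1.64 to −0.01) in RT + shHDAC6 against RT. MT-TE, the glutamate tRNA, had 3, 21 and 18 counts, and its log2 ratio of 3.24 in RT against Ctrl has a counting interval of 1.499 to 5.63. MT-TE directly adjoins MT-ND6 on the same strand, whose log2 ratio was 1.36.

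The summed minus-strand tRNAs had 447 counts in Ctrl, 1215 in RT and 1289 with the hairpin, and a log2 ratio of 1.88 (1.72 to 2.04) in RT against Ctrl. Without MT-TQ the sums were 388, 825 and 845 counts and the log2 ratio was 1.52 (1.35 to 1.70). The summed plus-strand tRNAs had 79, 121 and 145 counts and a log2 ratio of 1.05 (0.63 to 1.48), whose interval overlaps that of the minus strand without MT-TQ. The median log2 ratio of those with over 3 counts was 2.08 for 6 minus-strand tRNAs and 1.07 for 5 plus-strand tRNAs in RT against Ctrl. MT-TE among the former and MT-TF among the latter passed 3 counts only through RT. Between the irradiated libraries the medians were 0.04 and 0.01, and the minus-strand median became −0.03 without MT-TQ.

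Among the plus-strand tRNAs, MT-TT, the threonine tRNA, had 41 counts in Ctrl, 57 in RT and 49 with the hairpin, with a log2 ratio of 0.91 (0.31 to 1.53) in RT against Ctrl. MT-TI had a log2 ratio of 1.49 (0.49 to 2.57). MT-TM, the methionine tRNA, had 9, 14 and 14 counts, and its log2 ratio of 1.07 has an interval of −0.24 to 2.46 that includes 0. MT-TW, the tryptophan tRNA, had 13 counts in Ctrl, 15 in RT and 41 with the hairpin. It was the only mitochondrial gene past the filter that differed by at least 2-fold between the irradiated libraries, with a log2 ratio of 1.39 (0.50 to 2.35). MT-TF, the phenylalanine tRNA, had 2, 5 and 3 counts and MT-TD, the aspartate tRNA, 1, 2 and 8 counts, too few to rank.

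The other 10 tRNAs had next to no counts. MT-TL1 and MT-TN had 1 count each, both in RT, and MT-TV, MT-TC, MT-TK, MT-TG, MT-TR, MT-TH, MT-TS2 and MT-TL2 had 0 counts in all 3 libraries. A count of 0 still allows up to 3 counts, which corresponds to 0.0662, 0.0894 and 0.0857 TMM-scaled CPM in Ctrl, RT and RT + shHDAC6. These tRNAs had their place in the genome in common. All 10 have another gene of the same strand within 31 bases on both sides, whereas the 12 tRNAs with counts are open on at least 1 side of their strand. The first 10 had at most 1 count in total over the 3 libraries, and the other 12 had 10 to 1371 counts in total with a median of 70.5. Of those 12, 10 have a gene of either strand within 31 bases on both sides, and these had 11 to 893 counts in total. The distance of 31 bases is the gap between MT-TN and MT-TC and was chosen after these counts were seen, and a shorter one would place MT-TN and MT-TC among the open tRNAs, so the division is a description only.

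The clearest example is the run of MT-TH, MT-TS2 and MT-TL2 between MT-ND4 and MT-ND5, which follow each other without an intervening base (chrM:12138-12336, plus strand, with MT-TS2 in capitals).
MT-TH, MT-TS2, MT-TL2: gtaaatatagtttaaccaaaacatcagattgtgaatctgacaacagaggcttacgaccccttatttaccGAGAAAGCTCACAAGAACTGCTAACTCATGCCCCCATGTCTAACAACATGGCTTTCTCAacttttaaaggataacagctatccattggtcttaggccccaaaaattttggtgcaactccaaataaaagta
MT-ND4 before it and MT-ND5 after it had 157633 and 128408 counts in Ctrl, and the 3 tRNAs between them 0 counts. A read longer than a tRNA cannot lie in one of these genes without reaching the next, and how the counting treated reads that touch several genes is not stated. Its part in the 0 counts was not tested, so a count of 0 here is not a statement that the tRNA was absent, and the counts of the other 12 tRNAs need not rank their levels.

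**Figure D3:**
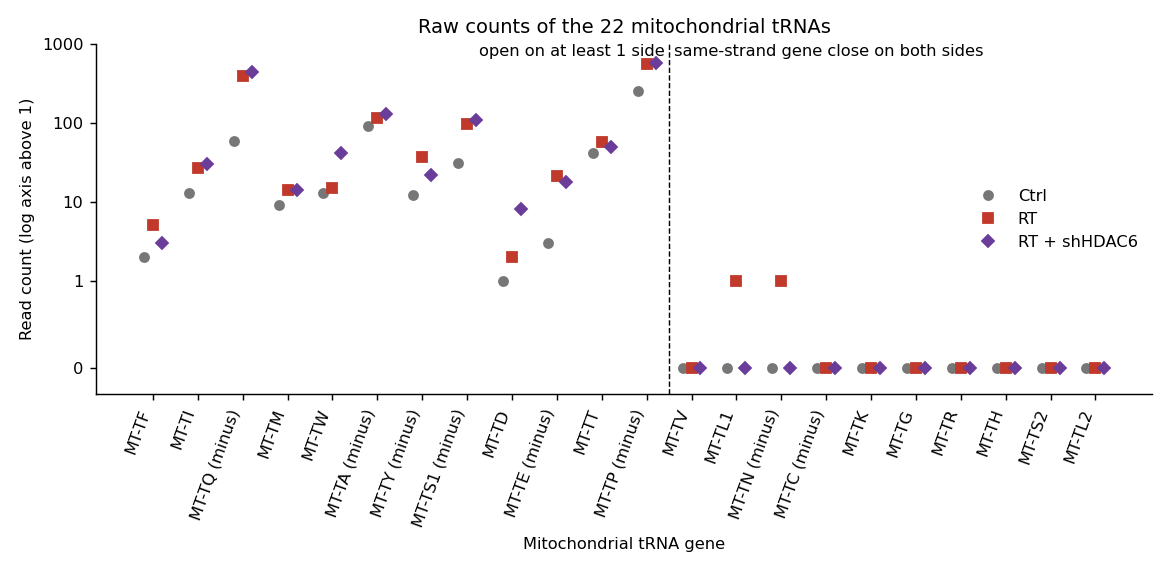
Raw read counts (y axis, log scale above 1) of the 22 mitochondrial tRNAs (x axis) in the 3 libraries; left of the dashed line are the 12 tRNAs open on at least 1 side of their strand, right of it the 10 with a same-strand gene within 31 bases on both sides. The 10 on the right have 0 counts or 1 count, and MT-TP reaches 567 counts and MT-TQ 444 counts on the left.

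Nuclear RNA classes that mostly lack a poly(A) tail were summed for comparison with the mitochondrial tRNAs. Small nuclear RNAs summed to 1684, 1218 and 1213 counts, with a log2 ratio of −0.03 (−0.14 to 0.08) in RT against Ctrl. Small nucleolar RNAs summed to 3120, 3166 and 3351 counts, with a log2 ratio of 0.46 (0.38 to 0.53), and small Cajal body RNAs to 94, 84 and 79 counts, with a log2 ratio of 0.27 (−0.17 to 0.71). The miscellaneous class of the annotation had 4001, 1819 and 1911 counts and a log2 ratio of −0.70 (−0.78 to −0.62). Of these 4 classes, the small nucleolar RNAs had an interval above 0 and the miscellaneous class one below 0. The intervals of the other 2 included 0, and each ratio was below the 1.78 (1.63 to 1.93) of the summed mitochondrial tRNAs. In RT + shHDAC6 against RT, the interval of each class included 0.

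The nuclear genome holds copies of mitochondrial genes that can take up mitochondrial reads. The table had 404 such rows, 207 of them without a count, which together held 46338, 49014 and 38461 counts, or 2.96%, 2.24% and 1.97% of the mitochondrial counts. Their sum had a log2 ratio of 0.52 (0.50 to 0.53) in RT against Ctrl, below the 0.92 of the summed mitochondrial genes, and −0.41 (−0.43 to −0.39) in RT + shHDAC6 against RT. MTATP6P1, whose sequence is 98.5% identical to MT-ATP6, had the most, with 22042, 27291 and 21680 counts against 55931, 82700 and 73307 for MT-ATP6, so the MT-ATP6 values are uncertain in proportion. MTCO1P12, 98.7% identical to MT-CO1, had 9401, 7429 and 5628 counts and a log2 ratio of 0.10 (0.05 to 0.14) in RT against Ctrl, where MT-CO1 had 0.87. MTND6P4, 95.02% identical to MT-ND6, had 479, 876 and 958 counts, and its log2 ratios of 1.31 (1.14 to 1.47) and 0.07 (−0.07 to 0.20) included those of MT-ND6 in their intervals. Of 13 copies with at least 100 counts in a library and at least 90% identity, 12 had a lower ratio than their mitochondrial gene in RT against Ctrl and 12 in RT + shHDAC6 against RT. These copies are not separate observations, because many lie close together. MTND1P23, MTND2P28, MTCO1P12, MTCO2P12, MTATP6P1 and MTCO3P12 do so on chromosome 1. MTND6P4, MTND5P11 and MTND4P12 do so on chromosome 5, and MTCO1P53 and MTND4P24 on chromosome X.

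Nuclear genes whose proteins make, process and use mitochondrial RNA were examined in 5 lists. Few members differed by 2-fold, but most were higher in RT than in Ctrl. In the order taken below, the lists had 16 of 17, 16 of 20, 15 of 17, 18 of 22 and 5 of 9 genes with a log2 ratio above 0. Over all genes past the filter, the median log2 ratio was −0.03 and the upper quartile 0.35. Scaling by library totals moves the ratios of the lists and of all genes alike, by −0.22. It takes each gene called at 2-fold in RT against Ctrl in these lists below that line, and some small ratios below 0. In the list for mitochondrial transcription and DNA maintenance, 1 of 17 genes was at least 2-fold higher in RT than in Ctrl and 0 were lower, against 4.62% and 6.36% of all genes, and the median log2 ratio was 0.41. The gene was TWNK, the replicative helicase, with 1002, 1595 and 1919 counts and a log2 ratio of 1.11 (0.99 to 1.22). The mitochondrial RNA polymerase POLRMT had 3141, 4186 and 3763 counts and a log2 ratio of 0.85 (0.78 to 0.92). TFAM, which packages mitochondrial DNA and activates its promoters, had 3821, 3385 and 3926 counts and a log2 ratio of 0.26 (0.19 to 0.33). TFB1M, which methylates the 12S rRNA, had the lowest ratio of the list, −0.21 (−0.38 to −0.03). POLRMT and TFAM were chosen for their roles and after their values were seen.

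In the list for RNA processing, stability and decay, 0 of 20 genes differed by 2-fold in RT against Ctrl, with a median log2 ratio of 0.43. Of all genes, 4.62% were at least 2-fold higher and 6.36% lower. The values ran from −0.14 (−0.32 to 0.04) for SLIRP, which with LRPPRC stabilizes mitochondrial mRNAs, to 0.90 (0.82 to 0.98) for FASTK, which is known to act on the MT-ND6 mRNA. In RT + shHDAC6 against RT the same 2 genes were the extremes in the opposite order, SLIRP at 0.50 (0.31 to 0.68) and FASTK at −0.25 (−0.33 to −0.18). In the list for tRNA modification and maturation, 2 of 17 genes were at least 2-fold higher in RT, against 4.62% of all genes, with a median of 0.47. QTRT1, a subunit of the enzyme that inserts queuosine into tRNAs, had 1034, 1676 and 1624 counts and a log2 ratio of 1.13 (1.02 to 1.25), and the pseudouridine synthase PUS1 had 1268, 1941 and 1671 counts and 1.05 (0.95 to 1.15). QTRT2, the partner of QTRT1, had 1542, 1805 and 2992 counts and the highest ratio of the list in RT + shHDAC6 against RT, 0.67 (0.58 to 0.75). NSUN3, which modifies the methionine tRNA, was lowest in both comparisons, at −0.12 (−0.30 to 0.05) and −0.30 (−0.49 to −0.10).

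In the list for tRNA charging, 2 of 22 genes were at least 2-fold higher in RT than in Ctrl, against 4.62% of all genes, with a median log2 ratio of 0.25. They were MARS2, the mitochondrial methionyl-tRNA synthetase, at 1.08 (0.92 to 1.23), and SARS2, the seryl-tRNA synthetase, at 1.07 (0.79 to 1.35). GARS1, which charges glycine tRNAs in both the cytosol and mitochondria, was lowest at −0.62 (−0.67 to −0.57). Of 9 nuclear regulators of mitochondrial biogenesis, 0 differed by 2-fold in RT against Ctrl, against 4.62% of all genes higher and 6.36% lower. Their median was 0.17, with the highest value for PPRC1, a coactivator, at 0.76 (0.71 to 0.81). PPARGC1A, a coactivator of mitochondrial biogenesis, had 22 counts in Ctrl, 9 in RT and 38 with the hairpin. It was the only gene of the 5 lists at least 2-fold higher in RT + shHDAC6 than in RT, with a log2 ratio of 2.02 (0.94 to 3.25). In that comparison the medians of the 5 lists lay between −0.02 and 0.06, and 0 genes were at least 2-fold lower. Of all genes, 3.35% were at least 2-fold higher in it and 4.26% lower.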

How the data were processed

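T24 RNA was sequenced in 3 libraries. The authors used cutadapt for trimming, STAR (2.6.1a in the submitters' processing notes) for alignment to GRCh38 and featureCounts with GENCODE release 28 for counting; the strand setting and the treatment of reads matching several genes are not stated. The labels and the study's methods name different stranded kits. The deposited values are raw read counts per gene. Symbols, strands and positions came from GENCODE release 44, which matched 57799 of 58381 identifiers; sequences came from hg38. Counts were scaled by TMM over the 3 libraries (edgeR 4.0.16, R 4.3.3). A gene was called at 2-fold among genes with a mean of at least 10 counts, a count of 0 being set to 0.5 in ratios; no fold is given where both libraries had 3 counts or fewer. Intervals are 95% Clopper-Pearson (scipy 1.17.1). NOISeq, which the study's methods name, was not run. The calls were tested on simulated data with counting error only and no changed mitochondrial gene. That run checks the code and says nothing about spread between cultures. Alternatives were other scalings (library totals, DESeq2 1.42.0 median of ratios, upper quartile, TMM over nuclear genes), filters, a 1.5-fold rule and leaving out MT-TQ. Every mitochondrial gene could be named; of other lists, the genes past 2-fold with at least 100 counts and the extremes. The members and lists were chosen with earlier results of these data known.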

Additional observations from a re-analysis of the deposited data

How the results depend on the processing

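In each comparison with Ctrl, all 26 mitochondrial genes with a ratio kept their sign under all alternatives run. The 2 sets differ, with MT-TF only in RT against Ctrl and MT-TD only in RT + shHDAC6 against Ctrl. Library totals moved these ratios most, by −0.22 and −0.13, and the smallest ratios were 0.57 and 0.36, so no sign could turn. The sign is that of the ratio alone. Counting intervals included 0 for MT-TF, MT-TM and MT-TW in RT against Ctrl and for MT-TM in RT + shHDAC6 against Ctrl. In RT + shHDAC6 against RT, 24 of 27 kept their sign, and MT-RNR1 (0.03), MT-TM (0.02) and MT-TP (0.06) turned positive with library totals. In RT against Ctrl, the median log2 ratio of the mRNAs was 0.90 with library totals, 1.18 with median-of-ratios factors and 1.06 with upper quartile factors, and that of the rRNAs was 0.36, 0.64 and 0.52; the minus-strand tRNAs gave 1.86 with library totals. In RT + shHDAC6 against RT, the same scalings gave −0.14, −0.23 and −0.20 for the mRNAs and −0.0098, −0.10 and −0.066 for the rRNAs. The genes at least 2-fold higher in RT than in Ctrl numbered 10 to 17 under the other scalings and filters and 23 with a 1.5-fold rule. Between RT + shHDAC6 and RT they numbered 2 without a filter and 0 with a mean of at least 100 counts, and 1 gene was lower with the 1.5-fold rule. Against Ctrl, RT + shHDAC6 had 6 when the mean had to reach 100 counts and 21 with the 1.5-fold rule. Without MT-TQ the minus strand held 87.2% of tRNA counts in RT and 85.4% in RT + shHDAC6. Over counts on protein-coding and mitochondrial genes, the mitochondrial share was 3.85%, 6.23% and 5.65% in Ctrl, RT and RT + shHDAC6. The changes with the filters and the fold rule follow from which genes they admit.

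With 1 library per condition, no difference could be set against the spread between cultures, and dish, extraction and library cannot be told apart from the condition. The precision is lowest for the tRNAs, of which the 14 on the plus strand together had 79 counts in Ctrl and 8 had none; why these counts were low was not tested. No paired analysis was possible because each condition had 1 library and no result comes from a test.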
